A study of Mus musculus with 2 samples.

Results

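Microglia made up 4028 of the 8171 labelled nuclei sorted for an Atf3-driven nuclear reporter from injured mouse cortex. They were taken as the nuclei that the deposited annotation called Micro-PVM (microglia and perivascular macrophages) after mapping to a cortical reference atlas, without the 34 nuclei of that label that the authors had placed among the neurons. The male library held 1690 microglia of 4003 labelled nuclei, which is 42.2% (95% exact binomial interval 40.7–43.8%), and the female library 2338 of 4168, which is 56.1% (54.6–57.6%). Neurons were all nuclei with a deposited neuronal subclass, of which the male library held 1378 and the female library 1202. The share of microglia depended on how they were labelled. Counting every other nucleus of the deposited clusters led by the Micro-PVM label gave 51.8% (50.2–53.3%) of male and 59.4% (57.8–60.9%) of female nuclei.

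Both libraries came from Atf3-CreER::Sun1-sfGFP mice older than 7 weeks, with the genotype Atf3-CreER:+/wt; SUN-SfGFP:+/wt. Each mouse received a mild traumatic brain injury (mTBI) and was given tamoxifen at 4 and 5 days post injury (dpi). Ipsilateral cortex was frozen at 7 dpi, and nuclei positive for GFP and for the DNA dye DRAQ5 were sorted from 4 pooled animals per library. CreER was made wherever Atf3 was transcribed and could act on the reporter while tamoxifen was present. The reporter was kept afterwards, so a sorted nucleus need not have transcribed Atf3 at collection. No uninjured library was analysed here, and a difference from uninjured microglia cannot be read from these data. The sex and source labels of the female library read male, while its title reads female, and its summed microglia held 13069 Xist UMIs against 1 in the male library, and 1 Uty UMI against 399. It is called the female library here.

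Microglia are the resident macrophages of the brain parenchyma. They depend on signalling through the receptor Csf1r and on the transcription factor Spi1 (PU.1), survey the tissue with purine receptors such as P2ry12, and clear debris with complement, phagocytic receptors and lysosomes. After injury they can lower genes of their resting, or homeostatic, state and raise genes of lipid handling, interferon signalling or inflammation. Macrophages at the vessels and meninges share much of this programme and differ in genes such as Mrc1 and F13a1.

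Upstream sequences are shown for genes that carry the results below, namely 2 genes of the myeloid programme (Ctss and Csf3r) and 3 interferon-induced genes (Ifit3, Rsad2 and Ifit1). Each is the 250 bases before the first listed RefSeq start of the gene on GRCm38.p6, written 5′ to 3′ along the gene's strand. Capitals mark the core GAGGAA, which PU.1 can bind, in the first 2 sequences, and the interferon-stimulated response element, read as GAAA, any 2 bases and GAAA again, in the other 3, each searched on both strands. The windows are chr3:95526536-95526785 and chr4:126024409-126024658 for Ctss and Csf3r on the plus strand, chr19:34583279-34583528 for Ifit3 on the plus strand, chr12:26456453-26456702 for Rsad2 on the minus strand, and chr19:34640639-34640888 for Ifit1 on the plus strand.
Ctss: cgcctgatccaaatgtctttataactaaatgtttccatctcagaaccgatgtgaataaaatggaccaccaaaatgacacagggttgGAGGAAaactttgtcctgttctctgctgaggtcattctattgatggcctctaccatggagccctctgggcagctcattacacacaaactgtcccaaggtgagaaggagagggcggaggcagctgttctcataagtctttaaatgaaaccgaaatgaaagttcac
Csf3r: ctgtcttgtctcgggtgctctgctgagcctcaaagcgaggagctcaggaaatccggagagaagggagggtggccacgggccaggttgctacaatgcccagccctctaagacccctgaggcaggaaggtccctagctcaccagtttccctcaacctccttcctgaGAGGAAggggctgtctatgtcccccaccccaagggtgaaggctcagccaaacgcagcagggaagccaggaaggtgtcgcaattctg
Ifit3: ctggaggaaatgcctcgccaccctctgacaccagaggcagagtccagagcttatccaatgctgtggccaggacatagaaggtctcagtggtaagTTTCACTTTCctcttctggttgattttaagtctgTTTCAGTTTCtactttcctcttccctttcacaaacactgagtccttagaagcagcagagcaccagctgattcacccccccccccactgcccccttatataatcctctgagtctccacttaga
Rsad2: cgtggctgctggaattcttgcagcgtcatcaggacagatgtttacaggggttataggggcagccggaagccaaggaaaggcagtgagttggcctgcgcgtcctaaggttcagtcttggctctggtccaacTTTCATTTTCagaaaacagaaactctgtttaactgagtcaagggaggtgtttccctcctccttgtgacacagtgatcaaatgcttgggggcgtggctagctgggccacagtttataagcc
Ifit1: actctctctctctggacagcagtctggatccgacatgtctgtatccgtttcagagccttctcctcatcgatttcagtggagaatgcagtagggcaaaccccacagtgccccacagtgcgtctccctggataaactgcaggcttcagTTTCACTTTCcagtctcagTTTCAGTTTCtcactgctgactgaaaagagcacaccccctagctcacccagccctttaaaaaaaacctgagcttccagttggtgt

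The interferon element was present in 821 of 27025 RefSeq promoters of the same length (3.04%), and in 284 of the 10450 promoters of genes tested (2.72%). Of the interferon genes listed below, 13 had a promoter in the RefSeq table, and 7 of these held it (53.8%). Ifit3 and Ifit1 held 2 matches each, with first bases 156 and 122 bases before the start in Ifit3 and 104 and 85 in Ifit1, and Rsad2 held 1 at 120 bases. Ctss, outside the interferon list, also held 1 match, which is not marked in its sequence. The core GAGGAA was far more common, with 6252 of 27025 promoters (23.1%), 2351 of the 10450 of genes tested (22.5%), and 493 of the 1822 promoters of genes higher in microglia than in both neurons and empty droplets (27.1%). The AP-1 site TGANTCA was found in 84 of those 1822 promoters (4.61%), against 455 of the 10450 of genes tested (4.35%) and 1856 of all 27025 (6.87%). A match describes letters in a window and does not show binding.

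The depth of single microglia was low. Male microglia had a median of 1298.5 UMIs (unique molecular identifiers, counts of captured transcripts) from 826 genes. Female microglia had 3012.5 UMIs from 1428 genes, and neurons had 3591 and 8501.5 UMIs. Counts were therefore summed over microglia within each library, to 2493744 and 8042263 UMIs, and are given as CPM (UMIs of the gene per 1000000 UMIs of that sum, always with the male library first). Much of the RNA lay outside called nuclei. Barcodes of 101 to 500 UMIs that were not called as nuclei held 57.0% and 47.6% of all UMIs, and their mean content was 14.5% and 8.83% of that of a microglial nucleus. Whether these barcodes hold free RNA or pieces of nuclei was not tested. Barcodes with 1 to 50 UMIs, called empty droplets here, served as the comparator for RNA outside nuclei in the tests. Of these, 89.0% and 77.9% held a single UMI. The libraries shared 1 barcode among their nuclei and 0 among microglia.

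The 4 markers that define the class were all higher in microglia than in neurons and in empty droplets. Cx3cr1, the receptor of neuronal fractalkine (ENSMUSG00000052336, chromosome 9, 119901616–120069879, minus strand, GRCm38), was at 565 and 389 CPM in microglia, 17.5 and 11.5 CPM in neurons and 126 and 114 CPM in empty droplets. Ctss, the lysosomal protease cathepsin S (ENSMUSG00000038642, chromosome 3, 95526786–95556403, plus strand), was at 458 and 442, 9.47 and 8.18, and 85.5 and 118 CPM in the same order. Csf1r (ENSMUSG00000024621, chromosome 18, 61100598–61132149, plus strand) was at 501 and 458, 17.5 and 10.7, and 227 and 184 CPM. In all 3 genes every microglial sum lay above every sum of the other classes. C1qa, a chain of complement C1q (ENSMUSG00000036887, chromosome 4, 136895917–136898803, minus strand), was at 141 and 79.5 CPM in microglia and 5.06 and 1.39 CPM in neurons, but at 81.2 and 43.5 CPM in empty droplets, so its microglial range overlapped that of empty droplets.

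On the log2 scale the difference from neurons was 4.88 ± 0.24 (SE derived from the edgeR fit, 2 libraries per class) for Cx3cr1, 5.50 ± 0.26 for Ctss, 5.04 ± 0.44 for C1qa and 4.95 ± 0.23 for Csf1r. The adjusted p of Cx3cr1 was 1.68e-07 and that of C1qa 3.54e-06 (edgeR's quasi-likelihood test, Benjamini-Hochberg over 13800 genes). Against empty droplets the log2 differences were smaller, at 2.32 ± 0.22, 2.44 ± 0.23, 1.21 ± 0.40 and 1.58 ± 0.21 in the same order of genes, with an adjusted p of 0.0333 for C1qa. Over all genes tested, 27.4% were called higher and 31.8% lower in microglia than in neurons, and 20.6% higher and 22.8% lower than in empty droplets, so a call alone is common. Both comparisons called 17% higher and 19.8% lower in microglia. The label had been mapped from these same counts, so the comparison with neurons partly restates it. The median log2 difference of all genes was −0.03 against neurons and 0.01 against empty droplets. Log2 differences from the fit use scaling factors (TMM) that CPM do not. The factors were 1.03 and 0.891 for microglia and 1.33 and 1.13 for empty droplets. Log2 differences from empty droplets therefore lie above the ratio of the printed CPM, here and below.

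**Figure D1:**
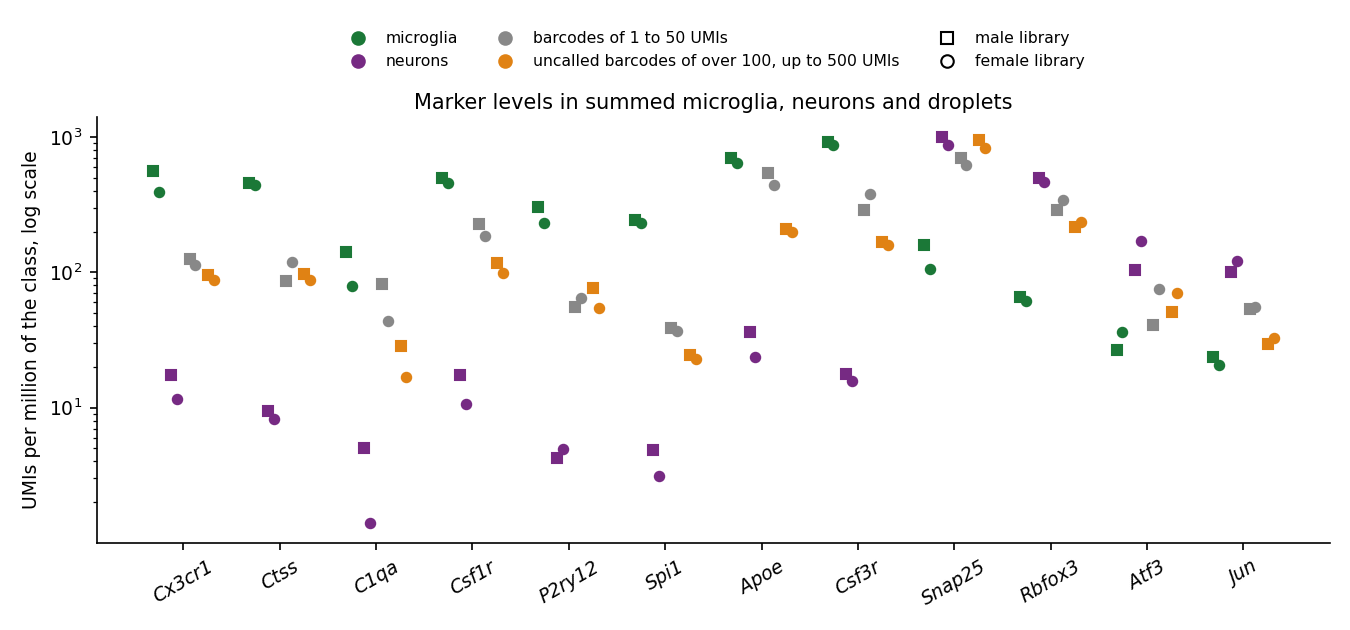
Level of 12 genes in summed microglia, neurons and 2 kinds of droplet, in CPM of the class on a log axis, with a square for the male and a circle for the female library. Cx3cr1, Ctss and Csf1r lie highest in microglia in both libraries, and Atf3 lies lower in microglia (26.5 and 35.9 CPM) than in neurons (104 and 169 CPM).

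Genes of the homeostatic state stood well above neurons. The lists here and below were chosen with earlier results of these data known, and the label came from the same counts. High counts of list members were therefore partly fixed in advance. All 18 listed and tested were higher in microglia than in neurons, with a median log2 difference of 5.17, and 15 were higher than in empty droplets, with a median of 2.02. P2ry12, the ADP receptor that steers microglial processes, was at 302 and 233 CPM in microglia versus 4.25 and 4.96 CPM in neurons and 55.6 and 64.7 CPM in empty droplets. Siglech, a sialic-acid-binding lectin, had the largest difference of the group from neurons, with 376 and 198 CPM against 5.39 and 3.13 CPM, a log2 difference of 5.92 ± 0.32. Sall1, a transcription factor particular to parenchymal microglia within the brain's macrophages, was at 256 and 208 CPM against 6.04 and 4.61 CPM. Tmem119, a membrane protein used as a microglial marker, was at 61.8 and 34.9 CPM against 1.80 and 0.696 CPM. These 4 genes also stood above empty droplets, by 1.98 to 2.57 on the log2 scale.

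The 3 homeostatic genes not called against empty droplets were Bin1, Cst3 and Slc2a5. Bin1, which shapes membranes and is used by neurons too, was at 1083 and 643 CPM in microglia versus 451 and 259 CPM in neurons and 1411 and 726 CPM in empty droplets. Cst3, which encodes the secreted protease inhibitor cystatin C, was at 376 and 116 CPM against 374 and 161 CPM in empty droplets. For both, the 2 groups overlapped. Against the uncalled barcodes of 101 to 500 UMIs the median of the homeostatic list was 2.0. Of 15489 genes tested, 27% were called higher and 29.4% lower than these barcodes.

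The listed transcription factors that establish the lineage were higher in microglia than in both comparators in 13 of 13 cases, with medians of 4.83 against neurons and 2.19 against empty droplets. Spi1 was at 245 and 230 CPM in microglia, 4.90 and 3.13 CPM in neurons and 38.5 and 36.8 CPM in empty droplets, a log2 difference from neurons of 5.75 ± 0.23. Irf8, its partner in macrophage development, was at 330 and 199 CPM against 6.21 and 4.26 CPM in neurons. Runx1, a regulator of haematopoiesis, was at 1644 and 1548 CPM against 30.1 and 41.1 CPM. Smad3, which carries TGF-β signals, had the smallest difference of the list, at 1.51 ± 0.32 against neurons and 1.44 ± 0.35 against empty droplets.

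Most genes of growth factor, chemokine and purine signalling were higher in microglia. Of 19 genes, 17 were higher and 2 lower in microglia than in neurons, with a median of 4.52, and 15 were higher and 2 lower than in empty droplets, with a median of 1.77. The receptors were among the higher genes. Tgfbr1, a receptor for TGF-β, was at 1271 and 1167 CPM in microglia versus 34.8 and 34.3 CPM in neurons, and P2ry6, a UDP receptor linked to phagocytosis, at 155 and 185 CPM against 3.43 and 3.74 CPM. Csf2rb, the shared signalling chain of the GM-CSF receptor, was at 102 and 93.9 CPM against 1.96 and 1.74 CPM. Both genes lower than neurons encode ligands: Il34, a ligand of Csf1r, was at 4.41 and 2.36 CPM in microglia versus 51.3 and 36.4 CPM in neurons (−3.98 ± 0.32), and Cx3cl1, the ligand of Cx3cr1, at 12 and 8.21 CPM against 50.1 and 42.3 CPM (−2.41 ± 0.23). Both also lay below empty droplets, by −3.14 and −2.55. Other ligands of the list, named here after their values were seen, were among the higher genes. Csf1, the other ligand of Csf1r, was at 66.2 and 95.2 CPM in microglia and 11.6 and 14.6 CPM in neurons, and Tgfb1, which encodes TGF-β1, at 222 and 153 CPM and 10.1 and 4.26 CPM.

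Complement and phagocytosis genes were likewise high, with 22 of 23 tested higher and 1 lower than in neurons (median 5.00), and 19 of 23 higher than in empty droplets (median 2.26). Mertk, a receptor that engulfs apoptotic cells, was at 1776 and 1897 CPM in microglia, 28.1 and 28.9 CPM in neurons and 406 and 615 CPM in empty droplets. Itgam, which encodes CD11b, a chain of complement receptor 3, was at 45.3 and 54.5 CPM against 1.96 and 1.22 CPM in neurons, and 4.28 and 6.69 CPM in empty droplets. C1qb and C1qc, the other chains of C1q, were higher than in neurons by 4.84 ± 0.31 and 5.29 ± 0.32. Gas6, a bridging ligand of Mertk, was the lower gene, at 71.4 and 101 CPM in microglia versus 163 and 198 CPM in neurons (−1.21 ± 0.25), and was not called against empty droplets (150 and 135 CPM).

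All 20 lysosomal genes were higher than in neurons, with a median of 2.82, and 17 higher than in empty droplets, with a median of 1.33. Ctsd, the protease cathepsin D, was at 594 and 415 CPM against 45.6 and 23.5 CPM in neurons but 562 and 401 CPM in empty droplets. Against empty droplets it did not pass the test (0.42 ± 0.26, adjusted p = 0.206) but did with library as a block (0.0419, both edgeR). That log2 difference carries the scaling factors given above, while the CPM of microglia and empty droplets were close. Genes of lipid handling were mixed, with 11 of 16 higher and 1 lower than in neurons (median 2.05), and 9 higher than in empty droplets (median 0.86). Abca1, which exports cholesterol, was at 1296 and 1887 CPM against 133 and 137 CPM in neurons, and Plin2, which coats lipid droplets, at 35.7 and 56.5 CPM against 0.653 and 1.65 CPM. Pparg, a nuclear receptor of fatty acids, was the lower gene, at 20.1 and 33.7 CPM against 124 and 89.0 CPM (−2.06 ± 0.28). Its difference from empty droplets did not pass the test without the block but did with it (adjusted p = 0.0586 and 0.00826, edgeR).

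The list of disease-associated microglial genes, those known to rise in microglia around plaques and lesions, was higher than in neurons in all 21 tested members (median 4.34) and higher than in empty droplets in 12 (median 1.61). Apoe, a lipid carrier, was at 693 and 646 CPM in microglia, 36.1 and 23.6 CPM in neurons and 545 and 439 CPM in empty droplets. Itgax, which encodes CD11c, was at 16.8 and 16.4 CPM against 0.817 and 0.609 CPM in neurons, and 4.28 and 4.46 CPM in empty droplets. Gpnmb, a lysosomal glycoprotein of lipid-loaded macrophages, differed between the libraries, with 81.0 CPM in male and 406 CPM in female microglia, against 19.6 and 20.7 CPM in neurons. It was higher than in neurons (3.50 ± 0.74, adjusted p = 0.00193), and against empty droplets (29.9 and 143 CPM) it did not pass, though it did with the block (adjusted p = 0.0777 without and 7.19e-06 with it, edgeR).

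Trem2 and Spp1 likewise passed against empty droplets with the block alone of these 2 fits. Trem2, the lipid-sensing receptor needed for this state, was at 325 and 152 CPM in microglia, 15.5 and 4.87 CPM in neurons and 210 and 105 CPM in empty droplets, with an adjusted p against empty droplets of 0.0907 without and 2.29e-05 with the block (edgeR). Spp1, which encodes osteopontin, rested on 14 and 134 UMIs, or 5.61 and 16.7 CPM, and against empty droplets had an adjusted p of 0.156 without and 0.0104 with the block. Cst7, an inhibitor of lysosomal proteases, was sparse, at 7.22 and 6.59 CPM, and higher than in neurons by 5.46 ± 0.58. Clec7a was not analysed here.

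**Figure D2:**
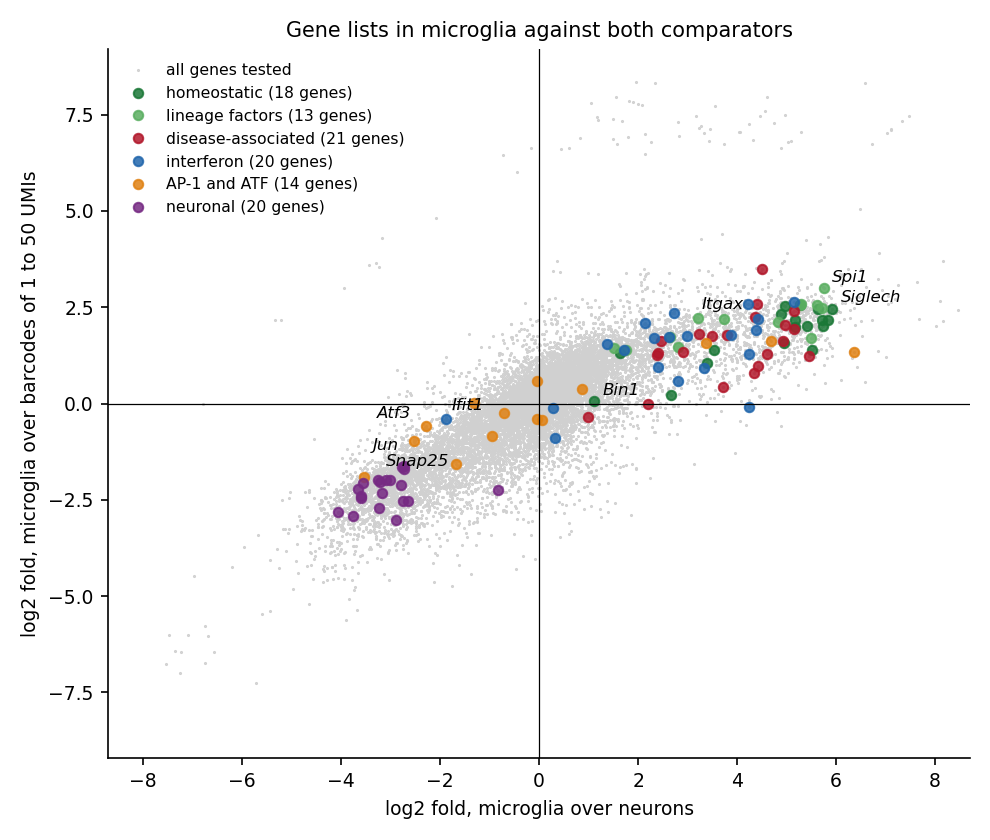
Log2 fold of microglia over neurons (horizontal) against log2 fold over barcodes of 1 to 50 UMIs (vertical), from the same fit, for all 13800 genes tested (grey) and the members of 6 lists (coloured). Lineage factors and most homeostatic genes lie at the upper right, neuronal genes at the lower left, and the AP-1 and ATF genes spread around the origin, with Atf3 and Jun left of it.

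Interferon-induced genes were higher than in neurons in 17 of 20 cases and lower in 1 (median 2.77), and higher than in empty droplets in 13 (median 1.63). Parp14 was at 337 and 247 CPM against 5.88 and 8.0 CPM in neurons, the largest difference of the list. Ifit3, one of the genes whose upstream element is shown above, was at 49.7 and 22.5 CPM against 6.37 and 5.22 CPM in neurons (2.40 ± 0.34), and against empty droplets its call came with the block (adjusted p = 0.0773 without and 0.0258 with it, edgeR). Ifit1, which binds viral RNA and shares that element, was instead lower in microglia, at 19.6 and 8.83 CPM against 49.8 and 37.3 CPM in neurons (−1.89 ± 0.31, adjusted p = 0.000335, edgeR). Its level in empty droplets was 27.8 and 17.8 CPM.

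Antigen presentation and inflammatory genes were sparser. Of 12 antigen presentation genes 8 had enough counts, and 7 of them were higher than in neurons (median 3.90) and 6 higher than in empty droplets (median 1.69). B2m, the light chain of MHC class I, was at 109 and 99.2 CPM against 8.0 and 5.48 CPM, and H2-K1, a heavy chain, at 325 and 131 CPM against 27.4 and 11.3 CPM in neurons and 252 and 126 CPM in empty droplets, where its call came with the block (adjusted p = 0.249 without and 0.00441 with it, edgeR). Cd74, the invariant chain of MHC class II, rested on 24 and 34 UMIs in all microglia. Of 24 inflammatory genes 15 had enough counts, all 15 were higher than in neurons (median 4.55) and 9 higher than in empty droplets (median 1.37). The filter on low counts can admit a sparse gene through its microglial sums alone. Without that filter all 24 inflammatory genes were tested, with 18 higher and 1 lower than in neurons (median 3.59). Of these, 10 were higher than in empty droplets (median 1.36). Likewise 10 of 12 antigen presentation genes were then higher than in neurons (median 4.0) and 8 than in empty droplets (median 1.80). The innate receptor Tlr2 was at 22.9 and 21.3 CPM against 0.653 and 0.174 CPM, and Nlrp3, a sensor of the inflammasome, at 43.7 and 40.5 CPM against 1.63 and 1.13 CPM. The cytokine Tnf had 18 and 37 UMIs, with 7.22 and 4.60 CPM in microglia and 12.8 and 3.35 CPM in empty droplets, which overlap. Il6, Il10, Ptgs2, Nos2 and Arg1 had at most 3 UMIs in the microglia of each library, the limit taken here as a floor, and were not detectable at this depth.

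Atf3, the stress-induced transcription factor whose locus drove the Cre (ENSMUSG00000026628, chromosome 1, 191170296–191218039, minus strand), was lower in microglia than in neurons. It was at 26.5 and 35.9 CPM in microglia, 104 and 169 CPM in neurons, 40.6 and 74.7 CPM in empty droplets and 50.8 and 70.0 CPM in the uncalled barcodes of 101 to 500 UMIs. Within each library the microglial level was the lowest of the 4. The difference from neurons was −2.28 ± 0.36 on the log2 scale, or 4.84-fold lower (adjusted p = 0.000256, edgeR). Against empty droplets it was −0.58 ± 0.41 (adjusted p = 0.271, or 0.0287 with library as a block), and against the deeper uncalled barcodes −0.96 (adjusted p = 0.0474). Summed Atf3 UMIs of microglia were thus not detectable above the level in either kind of uncalled barcode, and how many of them came from outside the nuclei was not tested.

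After each nucleus was thinned to 1000 UMIs, 2.51% of male microglia (1.71–3.54%) and 3.19% of female microglia (2.51–3.98%) held an Atf3 UMI, against 10.0% and 13.7% of neurons at the same depth. The thinning left out 453 male and 16 female microglia that were shallower. Without thinning the microglial shares were 3.25% and 9.07%, and the gap between the libraries was wider. UMIs of the reporter's GFP sequence were found at 4.81 and 6.59 CPM in microglia, 5.88 and 10.7 CPM in neurons, 15.0 and 15.6 CPM in empty droplets and 2.79 and 4.01 CPM in the uncalled barcodes of 101 to 500 UMIs. The microglial values rest on 12 and 53 UMIs and those of empty droplets on 7 and 14, and the microglial level lay below that of empty droplets in both libraries.

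The AP-1 and ATF genes as a group had no common direction, with 3 of 14 higher and 5 lower than in neurons (median −0.37), and 1 higher and 2 lower than in empty droplets (median −0.33), or 4 lower with library as a block. Jun, the AP-1 subunit at the end of the DLK and JNK injury pathway, was at 23.7 and 20.6 CPM in microglia, 101 and 122 CPM in neurons and 53.5 and 55.8 CPM in empty droplets (−2.52 ± 0.22 against neurons). Ddit3, which encodes the stress factor CHOP, was at 53.3 and 33.1 CPM against 147 and 92.8 CPM in neurons, and lower than in empty droplets too (−1.58 ± 0.26). Batf, an AP-1 factor of immune cells, went the other way, at 8.02 and 7.09 CPM in microglia with 0 UMIs in male neurons and 0.0870 CPM in female neurons.

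Of 22 proliferation genes 16 were tested, 10 were higher and 1 lower than in neurons (median 1.72), and 5 were higher and 1 lower than in empty droplets (median 0.87). Over all genes tested, 27.4% were higher than in neurons and 20.6% higher than in empty droplets. The summed list was not higher than in neurons, at 174 and 151 CPM in microglia and 185 and 164 CPM in neurons. In empty droplets it was at 165 and 156 CPM. Without the filter on low counts, 9 of 22 were higher and 1 lower than in neurons (median 1.20). Mki67, a protein of cycling cells, was at 12 and 13.3 CPM against 0.163 and 0.348 CPM in neurons. Diaph3, an actin nucleator in the same list, was the lower gene, at 31.3 and 25.2 CPM against 99.0 and 97.4 CPM.

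Markers of other cell types were examined in the same nuclei. Of the 20 neuronal genes, 19 were lower than in neurons (median −3.13) and all 20 lower than in empty droplets (median −2.24), but none was near 0. Snap25, of the synaptic vesicle machinery, was at 160 and 105 CPM in microglia versus 1008 and 866 CPM in neurons and 701 and 623 CPM in empty droplets, and the nuclear marker Rbfox3 at 65.4 and 61.7 CPM against 502 and 464 CPM in neurons. Slc17a7, the vesicular glutamate transporter, was the gene not called against neurons (32.1 and 11.6 against 46.1 and 19.1 CPM, adjusted p = 0.134, or 0.000126 with library as a block, edgeR). The summed neuronal list was at 7662 CPM in male and 4884 CPM in female microglia, a share of UMIs that moves with every comparison of the libraries below and whose part in them was not tested.

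Glial lists split within themselves. The astrocyte list had 2 of 8 genes higher and 3 lower than in neurons, and Slc1a3, the glutamate transporter GLAST, was at 373 and 218 CPM in microglia versus 9.96 and 8.18 CPM (4.83 ± 0.26). It was also above empty droplets (1.14 ± 0.23), while the other 7 astrocyte genes were lower than there. In the oligodendrocyte precursor list Cspg4, the proteoglycan NG2, was at 42.1 and 45.6 CPM against 1.47 and 0.783 CPM in neurons (5.19 ± 0.34) and above empty droplets (2.25 ± 0.35), while 2 of the other 3 tested were lower than both comparators and Olig1 and Olig2 were at or under the floor. In the oligodendrocyte list 6 of 8 were higher than in neurons but 1 higher and 1 lower than in empty droplets, or 2 higher with the block. Cldn5, Rgs5, Dcn and Ly6c1, of vessels and meninges, were at or under the floor.

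Most defining markers of blood-derived cells were at or under the floor, while several border macrophage genes were not. Of 10 genes of monocytes and granulocytes, 7 were at or under the floor, among them Ly6c2, S100a8 and S100a9. Csf3r, the G-CSF receptor that microglia also transcribe, was at 922 and 866 CPM in microglia versus 17.8 and 15.8 CPM in neurons and 291 and 380 CPM in empty droplets (5.56 ± 0.27 against neurons). Ccr2, the chemokine receptor of recruited monocytes, had 14 and 22 UMIs in microglia and 0 in both comparators. Setting a comparator to 3 UMIs over both libraries makes Ccr2 at least 20.1-fold higher than in neurons and at least 1.55-fold higher than in empty droplets. With Ccr2 at its bound the median of the 2 tested genes was 4.94 in place of 6.34 against neurons, and 1.19 in place of 4.43 against empty droplets. Of 13 border macrophage genes 9 were tested and 8 were higher than in neurons (median 5.37, or 4.58 with genes at their bound) and 6 higher than in empty droplets. Without the filter on low counts, 9 of 12 border macrophage genes were higher than in neurons (median 4.66). Of the monocyte and granulocyte genes, 2 of 7 were then higher than in neurons (median 2.17). F13a1 had 33 and 536 UMIs, Ms4a7 69 and 791 and Mrc1 25 and 229, while Lyve1 had 0 and Pf4 2 UMIs over both libraries. Of the T-cell genes Cd3e, Cd3g, Cd3d and Trac were at or under the floor.

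The genes furthest above neurons among those also higher than empty droplets were sparse ones. Psma8, Gm43351, Tspan32, Gm47731, Ceacam1, Ctla2b, F13a1, Ccr2, Gm15133 and Gm10384 led, and 8 of them had 0 UMIs in neurons, so their folds are lower bounds. With DESeq2 in place of edgeR, all of these but Ceacam1 and Gm10384 lost their calls against empty droplets. Psma8, a testis form of a proteasome subunit, had 24 and 76 UMIs in microglia, at least 55.7-fold above neurons, and Tspan32, a tetraspanin of blood cells, 24 and 53 UMIs, at least 42.9-fold. Ceacam1, an adhesion molecule of leukocytes, had 16 and 31 UMIs, at least 26.2-fold. F13a1, a coagulation factor chain made by macrophages, had 33 and 536 UMIs against 1 and 3 in neurons. At the other end Spocd1, Gm48091, Gm15810 and 4930483O08Rik had 0 UMIs in microglia, and Spocd1 was at least 18-fold lower than in empty droplets, where it had 4 and 3 UMIs.

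The deposited clustering placed microglia mainly in 8 of 26 clusters, with 9 nuclei elsewhere. Clusters were built from the same counts, so their genes are a description and no test was made. Clusters 0 and 5, with Tmem119 among the 10 leading genes of each, held 38.3% and 14.0% of the male and 30.6% and 10.7% of the female microglia. In cluster 0 Siglech was at 603 and 371 CPM against 291 and 151 CPM in all other microglia of the library, and Tmem119 at 104 and 60.6 CPM against 46.1 and 27.9 CPM. In cluster 5, which held only nuclei labelled Micro-PVM, the lens crystallin Crybb1 was at 62.3 and 63.0 CPM against 21.6 and 13.9 CPM. The summed homeostatic list was highest there, at 11257 and 11261 CPM.

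Cluster 1, with 22.8% (20.9–24.9%) of male and 28.7% (26.9–30.6%) of female microglia, was led by genes of scavenging and growth. Cd5l, a secreted scavenger protein of macrophages, was at 67.8 and 92.5 CPM against 2.29 and 9.39 CPM in other microglia. Igf1, a growth factor, was at 267 and 553 CPM against 73.7 and 165 CPM, and Lgals3, the lectin galectin-3, at 145 and 201 CPM against 40.0 and 73.5 CPM. The disease-associated list summed to 4474 and 4628 CPM in cluster 1, against 2238 and 1532 CPM in cluster 0. It was higher still in cluster 13, at 7065 and 6556 CPM, and stood at 5072 and 3920 CPM in cluster 9.

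Cluster 10 stood apart by interferon-induced genes. It held 119 male and 123 female nuclei, 7.04% (5.87–8.37%) and 5.26% (4.39–6.24%) of microglia, and 25.2% and 29.1% of all microglial UMIs of the interferon list. Ifit3 was at 282 and 193 CPM against 29.1 and 11.3 CPM in other microglia, Rsad2, an antiviral enzyme, at 154 and 171 CPM against 12.3 and 5.85 CPM, and Mx1 at 550 and 630 CPM against 72.7 and 37.8 CPM. Ifit1, which was lower in summed microglia than in neurons, reached 99.0 and 76.5 CPM in this cluster, against 12.8 and 4.39 CPM outside it. Ifit3, Rsad2 and Ifit1 were among the 10 leading genes of the cluster, and their upstream sequences are shown above because they carry this result. Ifit2, another leading gene at 168 and 173 CPM in the cluster, held no match of the interferon element in its window. The list as a whole summed to 7036 and 7056 CPM, and lay between 1418 and 2250 CPM in the other male and between 944 and 1270 CPM in the other female clusters.

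Cluster 9, with 6.39% (5.27–7.66%) and 5.73% (4.82–6.75%) of microglia, was led by Nes, an intermediate filament, at 205 and 175 CPM against 11.2 and 2.23 CPM in other microglia. Lpl, a lipase, was at 857 and 514 CPM against 117 and 77.2 CPM, and the proteases Mmp12 and Plau and the small Maf factor Maff were also among the leading genes. The inflammatory list was highest in this cluster, at 1594 and 998 CPM, as was the AP-1 and ATF list, at 468 and 328 CPM. Atf3 was at 106 CPM (95% Poisson interval 59.5–175) in its male and 88.6 CPM (61.4–124) in its female nuclei, against 18.7 and 15.0 CPM in cluster 0 and 4.15 and 13.3 CPM in cluster 5. The male interval of cluster 9 lay above the 50.8 CPM of the uncalled barcodes of that library, and the female interval held their 70.0 CPM.

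Cluster 13 had the highest level of the border macrophage list, but fewer UMIs of it (135 and 1663) than the larger cluster 1 (534 and 3020). Cluster 13 held 27 male and 110 female nuclei, 1.60% (1.06–2.32%) and 4.70% (3.88–5.64%) of microglia. Its mean mitochondrial share of UMIs was 2.5% and 1.54%, against 0.123% to 0.397% in the other clusters apart from cluster 18 (2.60% and 3.39%), and the part of this in its gene levels was not tested. F13a1 was at 405 and 895 CPM against 2.49 and 1.48 CPM in all other microglia, so that 81.8% and 97.9% of its UMIs lay in the cluster. The mannose receptor Mrc1 was at 195 and 343 CPM against 4.99 and 3.77 CPM, and Lyz2, a lysozyme of myeloid cells, at 315 and 459 CPM against 13.7 and 29.8 CPM. The homeostatic list was at its lowest there, at 4260 and 4975 CPM, and the border macrophage list at its highest, at 2025 and 2836 CPM. Of the Ccr2 UMIs, 9 of 14 and 10 of 22 were in this cluster. The label joins microglia and perivascular macrophages, and the cluster is given here by its number and leading genes.

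When cluster 13 was left out, 7 border macrophage genes were tested and all 7 were higher than in neurons, but 4 rather than 6 were higher than in empty droplets. F13a1 then turned from 3.08 ± 0.97 to −1.45 (adjusted p = 0.216, edgeR), and Mrc1, at 4.14 ± 1.0 with the cluster, was at 1.85 without it (adjusted p = 0.142). This alternative was chosen after seeing the data.

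Clusters 2 and 18 were the shallowest and least pure. In cluster 2, with 135 male and 290 female microglia, 425 of all nuclei (56.3%) were labelled Micro-PVM and 38.1% L6 IT CTX neurons. Microglia were 39.9% of its male and 69.5% of its female nuclei. The neuronal list reached 11524 and 7581 CPM in the microglia of cluster 2. Cluster 18, with 25 and 40 microglia, was led by mitochondrial transcripts, with mt-Atp6 at 3793 and 4753 CPM against 427 and 530 CPM in other microglia. Without both clusters 3779 genes were higher and 4382 lower than in neurons, close to the 3786 and 4388 of all microglia.

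**Figure D3:**
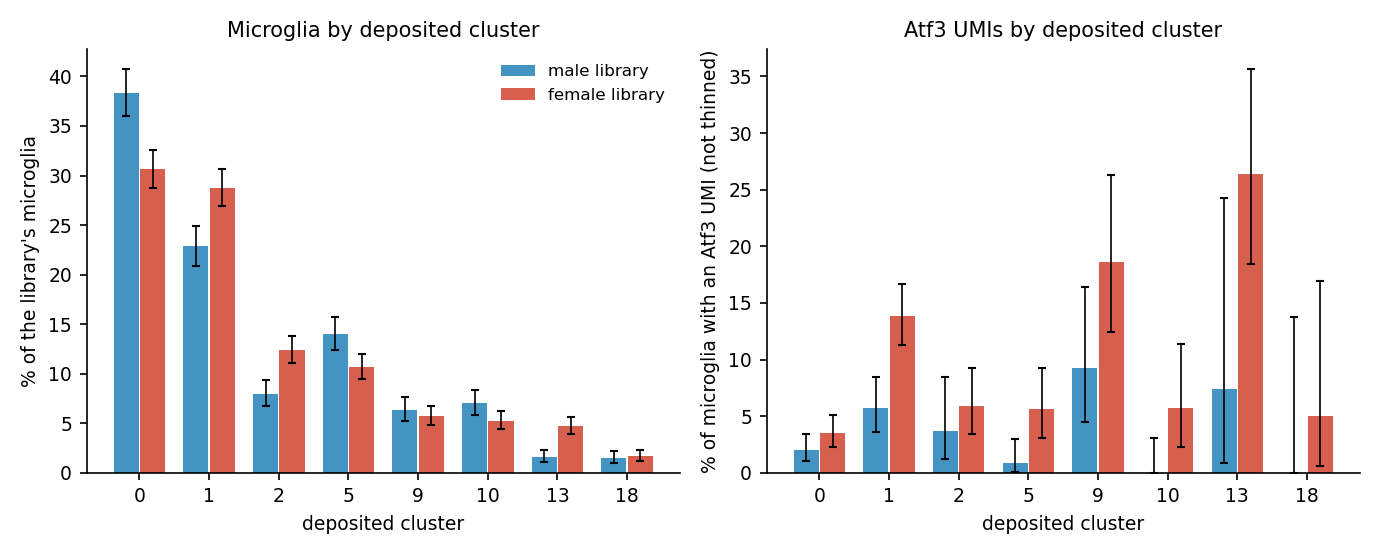
Share of each library's microglia in the 8 deposited clusters (left) and share of those microglia with an Atf3 UMI, not thinned to a common depth (right), in percent with 95% exact binomial intervals. Cluster 13 held 1.60% of male and 4.70% of female microglia. The share with an Atf3 UMI was largest in clusters 9 and 13 in both libraries. In male cluster 13 it rests on 2 of 27 nuclei (0.91–24.3%), so its rank there is not settled. Cluster 13 was also the deepest cluster, with medians of 2287 and 4822.5 UMIs.

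**Figure D4:**
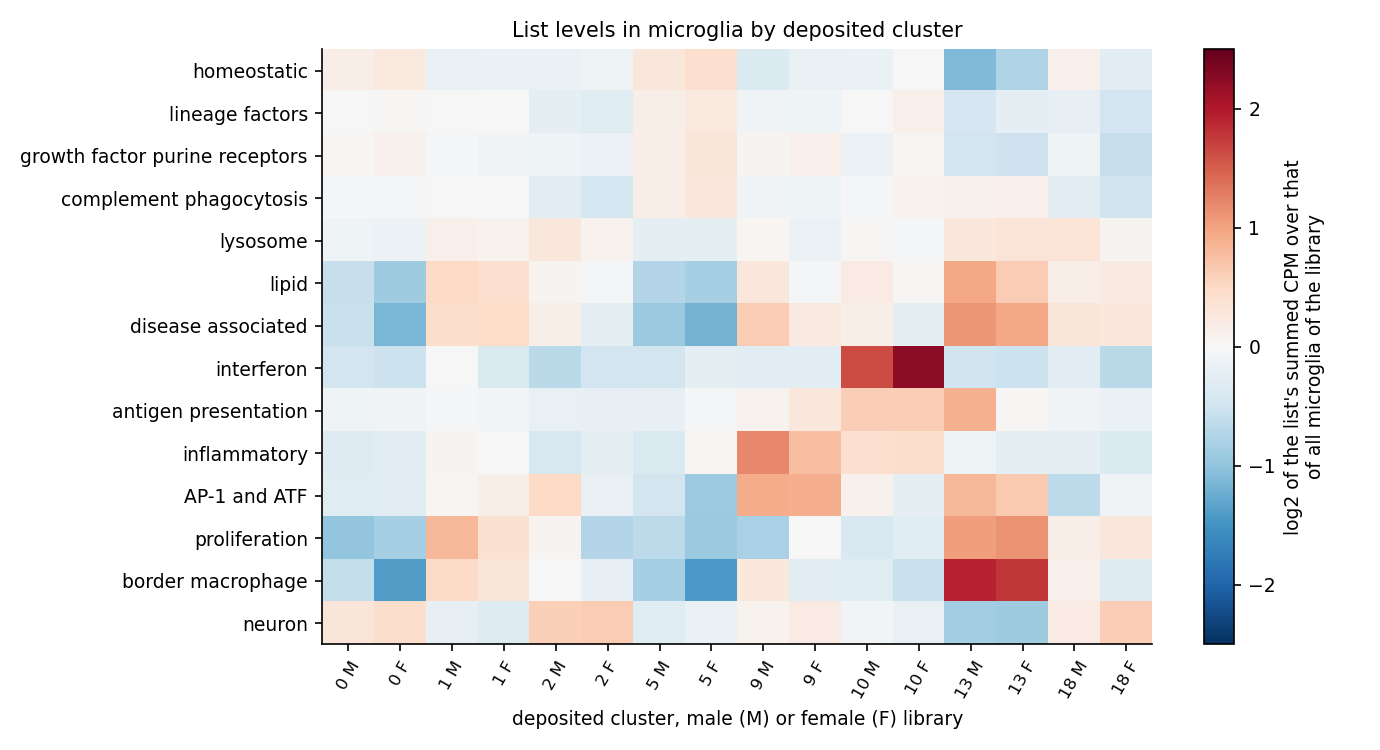
Log2 ratio of each list's summed CPM in a cluster to that in all microglia of the same library, for 14 lists (rows) and the 8 clusters in the male (M) and female (F) library (columns). The interferon list is raised in cluster 10, the border macrophage list in cluster 13, and the inflammatory and AP-1 lists in cluster 9, in both libraries.

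Male and female microglia were compared by size only, since each sex was 1 library of 4 pooled animals, and sex, pool and library cannot be told apart. Among 6747 genes that reached 20 CPM in either library, 269 had a male level at least 2-fold the female level (3.99%), and 53 showed the opposite (0.786%). The median log2 ratio of male to female was 0.17. The sex-linked genes set the extremes, with Xist at 0.401 and 1625 CPM and the Y-linked Uty at 160 and 0.124 CPM, Ddx3y at 95 and 0 CPM, Eif2s3y at 56.9 and 0 CPM and Kdm5d at 47.7 and 0.622 CPM.

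Among autosomal genes the largest ratios towards the female library were those of Plxna1, Lama3, Gpnmb, F13a1 and Tfec. Plxna1, a semaphorin receptor, was at 2.81 CPM (1.13–5.78) in male and 26.7 CPM (23.3–30.6) in female microglia, against 17.5 and 25.1 CPM in neurons. Gpnmb was at 81.0 CPM (70.2–93.0) and 406 CPM (393–421), and in neurons at 19.6 and 20.7 CPM. Tfec, a transcription factor of macrophages, was at 8.02 CPM (4.90–12.4) and 37.3 CPM (33.2–41.8), and F13a1 at 13.2 CPM (9.11–18.6) and 66.6 CPM (61.1–72.5). Igf1 was 2.38-fold higher in the female microglia, at 130 and 310 CPM. In empty droplets Gpnmb was at 29.9 and 143 CPM and Igf1 at 42.8 and 110 CPM, so both leaned to the female library there too. All 7 border macrophage genes that reached 20 CPM had the higher level in the female library, 4 of them at least 2-fold (F13a1, Ms4a7, Mrc1 and Siglec1), and the median log2 ratio was −1.0. The same 4 were at least 2-fold higher in the female empty droplets, on at most 20 UMIs each, where the median of the 7 was −1.20. Cluster 13, which held most of the F13a1 UMIs, was 1.60% of male and 4.70% of female microglia.

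The largest ratios towards the male library were those of Ttr, Eef1a2, Atn1, Nrgn and Map1lc3a. Ttr, a secreted carrier of thyroid hormone made by the choroid plexus, was at 20.1 and 1.87 CPM in microglia, 11.3 and 0.435 CPM in neurons and 201 and 14.5 CPM in empty droplets. Nrgn, a postsynaptic protein of neurons, was at 271 and 52.2 CPM in microglia, 81.8 and 29.0 CPM in neurons and 716 and 220 CPM in empty droplets. The other 3 genes had the same order of libraries in all 3 classes. Of the 269 genes, 140 were also at least 2-fold higher in the male empty droplets and 84 in the male neurons, and of the 53 female genes 20 were in the female empty droplets and 7 in the female neurons. Within the neuronal list 5 of 17 genes were at least 2-fold higher in male microglia and 0 in female microglia. The part of RNA outside nuclei in the ratios of either direction was not tested.

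Over all 6747 genes, 1890 had the higher level in the female library, which is the background for counts of direction. The 16 interferon genes that reached 20 CPM all had the higher level in male microglia, 2 of them at least 2-fold, with a median log2 ratio of 0.53, beside 0.17 over all genes, 0.16 for these genes in neurons and 0.07 in empty droplets. The homeostatic list had a median of 0.41, with 2 of 16 genes higher in the female library. The lipid list leaned to the female library, with 9 of 13 genes and a median of −0.41, and −0.45 in empty droplets. When each cluster was given the same weight in both libraries, 249 genes were at least 2-fold higher in the male and 19 in the female microglia. The median log2 ratio over all genes was then 0.17, that of the interferon list 0.43, of the homeostatic list 0.27, of the lipid list −0.16 and of the border macrophage list −0.71. With those weights the ratio of F13a1 fell from 4.89-fold to 2.03-fold and that of Gpnmb from 4.99-fold to 3.0-fold in favour of the female library. This weighting was chosen after seeing the data.

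**Figure D5:**
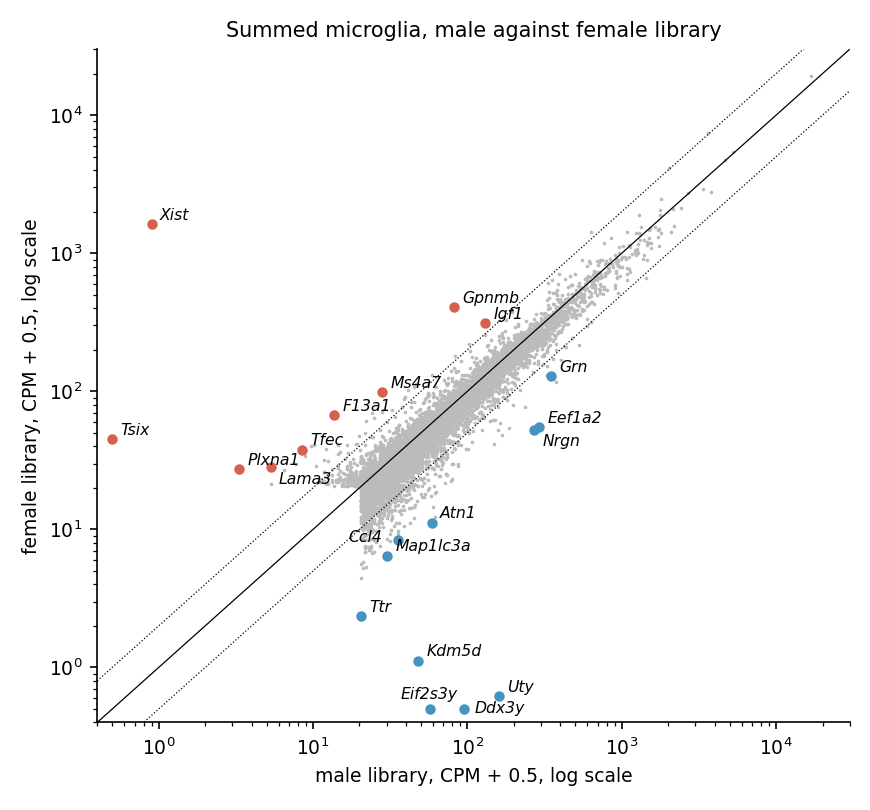
CPM of summed microglia in the male (horizontal) and female (vertical) library, with 0.5 CPM added, on log axes, for 6747 genes that reached 20 CPM in either library. The solid line marks equal levels and the dotted lines a 2-fold ratio, and the named genes include Gpnmb (81.0 and 406 CPM) on the female side and Nrgn (271 and 52.2 CPM) on the male side.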

How the data were processed

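Nuclei were profiled with 10x Genomics 3′ chemistry, 1 library per sex. The labels name Cell Ranger 3.1.0 and mm10, the headers of the filtered matrices 7.0.0 (female) and 7.0.1 (male). Those of both raw matrices give the number 4. Nuclei were summed from the filtered and droplets from the raw matrices, and an effect of software version was not tested. The authors deposited filtered and raw matrices of UMI counts, not normalized, and a table of labels and clusters with the mitochondrial percent of each nucleus. Their labels were mapped from these counts with Seurat.

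Counts of 31053 genes were summed per library over microglia (2493744 and 8042263 UMIs), neurons and barcodes of 1 to 50 UMIs. The 6 sums entered 1 fit in edgeR 4.0.16 (R 4.3.3; TMM factors, filterByExpr, quasi-likelihood test) with class as the only term. Genes with an adjusted p under 0.05 (Benjamini-Hochberg, 13800 genes) were called. Each SE is the size of the log2 difference divided by the square root of the F statistic of that test. Its spread is shared by the 6 sums and moderated across genes. The 2 libraries are the replicates and nuclei are not, so each p measures the spread between 2 pools of 4 animals. A fit with library as a block was run beside it. Sums of 1 library come from the same animals and deviated together (r = 0.42 between microglia and neurons, 0.30 between microglia and empty droplets, across genes). A fold against a class with 0 UMIs was bounded by setting that class to 3 UMIs over both libraries. A gene was at or under the floor with at most 3 microglial UMIs in each library. Shares carry 95% exact binomial intervals and CPM of 1 library exact Poisson intervals, which cover counting error only. The script was tested on simulated counts.

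Genes named were the largest and smallest difference from neurons in each list and its textbook members, Atf3 and the reporter, the 10 genes furthest above neurons among those higher than both comparators, the 5 furthest below empty droplets, the 5 largest autosomal ratios of male to female in each direction, and sex-linked genes. Leading genes of clusters, Csf1, Tgfb1, Siglec1 and genes whose calls changed under an alternative were named after their values were seen. Some genes that these rules name are not reported here. The members and lists were chosen with earlier results of these data known. Scrublet marked 39 of 8258 nuclei (0.472%), too few for the caller to be taken as having worked, so no doublets were removed. Alternatives were other normalization, filters, comparators and membership, DESeq2 1.42.0 and leaving out each library.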

Additional observations from a re-analysis of the deposited data

Results flagged for a closer look

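In 2 genes the libraries moved in opposite directions by at least 2-fold, and the difference between them was not tested. Folr2, the folate receptor of border macrophages, was below empty droplets in the male library, by −1.46 on the log2 scale, and above them in the female library, by 1.11. It rests on 5 and 24 UMIs in microglia and 3 and 1 in empty droplets. Mecom, a transcription factor in the vascular list, was above neurons in the male library, by 1.54, and below them in the female library, by −1.0. Its levels were low, since that whole list summed to 37.7 and 17.8 CPM in microglia and 14.2 and 15.3 CPM in neurons.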

How the results depend on the processing

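With library as a replicate block, 9709 genes were called against neurons and 7367 against empty droplets, in place of 8174 and 5981, and Ciita (against neurons) and Mbp (against empty droplets) gained a call. List members called higher than empty droplets then numbered 17 in place of 12 (disease-associated), 22 in place of 19 (complement), 19 in place of 17 (lysosome), 17 in place of 15 (growth factor and purine) and 8 in place of 6 (border macrophage). DESeq2 called 7224 and 5311. In the remaining library alone, where no test was possible, 8173 to 8174 of the genes called against neurons and 5966 to 5975 of those called against empty droplets kept their sign. These genes had been called from both libraries together, so this agreement was largely fixed in advance. The genes at least 2-fold apart between male and female microglia numbered 322, and 195 with 5 CPM added or 114 with a minimum of 50 CPM. The mean share of microglia with an Atf3 UMI was 2.85% at 1000 UMIs, 4.66% at 2000 UMIs and 6.16% without thinning, and 2.51% to 3.19% in single libraries. The share of microglia was 49.2% over both libraries and 42.2% to 56.1% in single libraries, and clusters with at least 50 microglia numbered 8 over both libraries and 6 to 7 in single libraries.

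Of the values for named genes under the alternatives, 1739 against neurons kept direction and call, 8 gained and 5 lost a call, and 4 reversed. Against empty droplets these were 1495, 31, 13 and 11. The reversals against neurons were Folr2 with excitatory neurons only (−0.00066) or without the female library (−0.067, and 0.64 without the male library), and Skap1 (2.02) and Slc17a7 (1.25) with inhibitory neurons only. Single-library values were log2 ratios of CPM with 0.5 CPM added. They lacked the TMM factors of the fit, so they are not on its scale. Those factors were 1.03 and 0.891 for male and female microglia, and 1.33 and 1.13 for empty droplets. Against empty droplets, some genes had the other sign from the fit when 1 library was left out. Values are given first without the male and then without the female library. Bin1 gave −0.17 and −0.38, Cst3 −0.47 and 0.0077, Ifit3 −0.12 and 1.35, Tnf 0.41 and −0.79, and Folr2 1.11 and −1.46. With the uncalled barcodes of 101 to 500 UMIs, chosen after seeing the data, the reversals were Cd63 (0.73), Ifit1 (0.75) and Folr2 (−0.12). Bin1 also reversed without microglia under 1000 UMIs (−0.013), and F13a1 without cluster 13 (−1.45). The causes were not tested. With DESeq2, Ccr2, F13a1, Ms4a7, Cd74 and Top2a lost their calls against empty droplets. So did Psma8, Gm43351, Tspan32, Gm47731, Ctla2b and Gm15133, while Skap1 and Gm15133 lost theirs against neurons. Depth limits the sparse genes most, and single microglia cannot be typed by genes such as Tnf or Cd74 at medians of 1298.5 and 3012.5 UMIs.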
